A study of Rattus norvegicus with 4 samples.

Results

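Cultured rat granulosa cells were compared by the number at the end of the array title. The 2 arrays titled replicate2, 1 from cells given Runx2 siRNA and 1 from cells given negative control siRNA, were set against the 2 arrays titled replicate1, with the siRNA as a term, so all 4 arrays of the series entered. The number is not a labelled treatment. The series' design text speaks of separate cultures, but the labels do not tie the numbers to them or to a day or batch, and what else differed between the numbers is not given in the sources used here.

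The cells of all 4 arrays came from ovaries of immature female Sprague Dawley rats aged 27 days and primed with PMSG, a gonadotropin that drives follicle growth, for 48 h. The cells were kept in reduced serum medium with insulin, transferrin and selenium, transfected with 20 nM of either siRNA and then cultured with 10 µM forskolin for 48 h, so every array carries both a transfection and forskolin. The siRNA was aimed at Runx2, a transcription factor that the ovulatory signal induces in these cells, and Runx2 itself was not analysed here. The labels do not give the number of animals behind each culture. The p-values of the fit with the siRNA term weigh a difference against how far the siRNA pairs disagree, pooled with the spread of other probe sets. That spread may be technical. In RNA from whole cultures, fewer cells of a type and less RNA per cell cannot be told apart.

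Granulosa cells surround the oocyte and make estradiol while the follicle grows. After the surge of luteinising hormone, LH, they turn into luteal cells that take up and make cholesterol and convert it to progesterone. Forskolin activates adenylyl cyclase directly and so stands in for LH by raising cyclic AMP. NF-kB is a family of transcription factors that is freed when its inhibitors are degraded and then induces chemokines, acute phase proteins and its own inhibitors, while interferons act through STAT and IRF factors on antiviral genes and on the genes that present antigen. SREBP factors sense membrane sterol and switch on the enzymes of cholesterol and fatty acid synthesis.

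Expression was read as the deposited MAS5 signal of each probe set, a linear brightness scaled on each array, and differences were taken on log2(signal + 16), replicate2 minus replicate1. Of 31099 probe sets, 57 controls were left out and 18625 lay above the 40th percentile of mean signal, a signal of 78.6. Signals written as a pair against a pair are those of Runx2 siRNA and control on the replicate1 arrays, then on the replicate2 arrays. The limma test with the siRNA as a term called 572 of these 18625 probe sets higher on the replicate2 arrays (3.07%) and 492 lower (2.64%) at an adjusted p under 0.05, in 396 and 330 named genes. At least 2-fold differences in the same direction in both siRNA pairs were found for 116 probe sets that were higher (0.623%) and 32 that were lower (0.172%), and none was 2-fold or more in opposite directions. Over all 18625 the median was 0.01 on the log2 scale. The number of calls rests on sharing the spread between probe sets, since the fit leaves 1 residual degree of freedom. Without limma's trend of the spread with intensity 5 probe sets were called higher and 0 lower, with 3475 at an unadjusted p under 0.05, and without the siRNA term 2 and 0, with 1354.

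The difference had the same sign in both pairs for most probe sets, with 6551 (35.2%) higher and 5954 (32.0%) lower in both. The array of Runx2 siRNA titled replicate2 stood apart in its spike-in controls, whose geometric mean was 2478 there against 1332 to 1550.0 on the others, and in its ratio of 3' to 5' actin signal, 1.71 against 1.42 to 1.45. Values from the control siRNA pair, which does not hold that array, are therefore given beside each difference printed with its error and adjusted p. In that pair alone all 572 probe sets called higher were higher and all 492 called lower were lower. The fit that made the calls holds that pair, so this was nearly given in advance and is no separate support. The part of the spike-in signal in the results was not tested. In the plot of one pair against the other, most of the named inflammatory and interferon genes lie in the upper right and most of the lipid synthesis genes in the lower left.

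**Figure D1:**
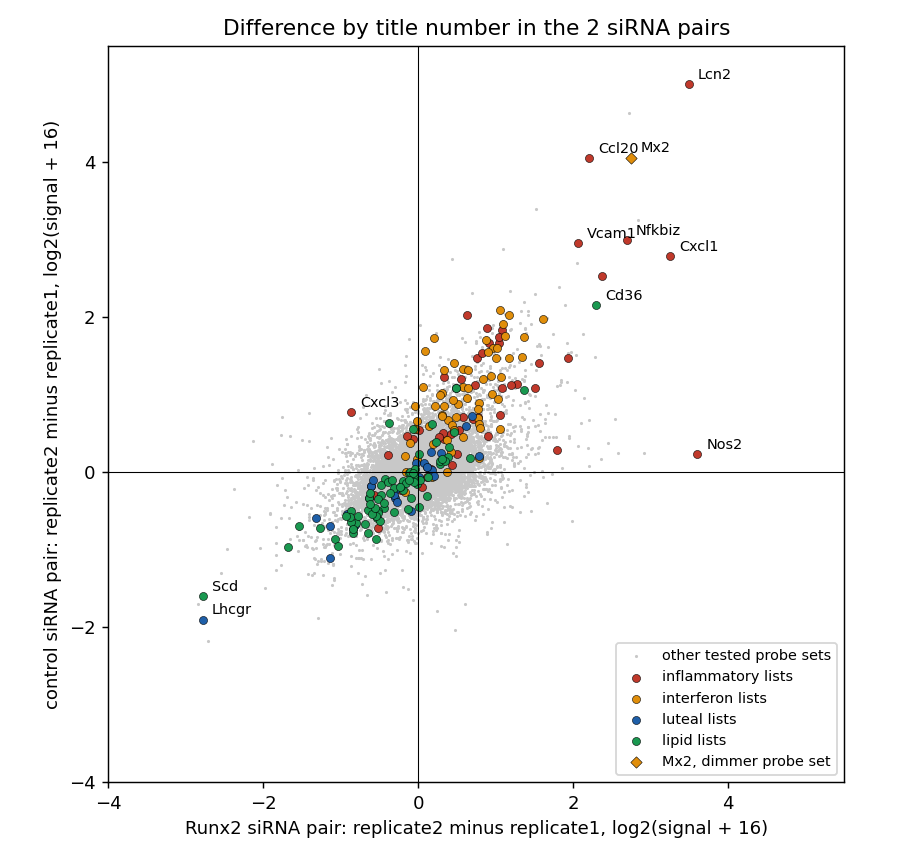
Each point is 1 of 18625 tested probe sets, with its log2 difference, replicate2 minus replicate1, in the Runx2 siRNA pair on the x axis and in the control siRNA pair on the y axis. Coloured points are members of the inflammatory, interferon, luteal and lipid lists, Lcn2 lies at 3.49 and 5.01, Lhcgr at -2.77 and -1.90, and Nos2 is far higher in the Runx2 siRNA pair, at 3.60 against 0.23.

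Most of the tested acute phase genes and genes of NF-kB's own circuit were higher on the replicate2 arrays. Of 48 such genes on the array, 22 were too dim to test, and of the 26 tested 19 were called higher and 0 lower, against 3.07% and 2.64% of all probe sets. Their median difference was 1.01, with 0.90 in the Runx2 siRNA pair and 1.10 in the control pair. In both pairs 23 were higher and 0 lower, against 35.2% and 32.0% of all probe sets, and 3 had opposite signs. These were the acute phase gene Hp (-0.38 in the Runx2 siRNA pair and 0.22 in the control pair), Sod2 (-0.06 and 0.43) and Il18 (0.05 and -0.19). Lcn2, whose product lipocalin 2 withholds iron from bacteria by binding siderophores, gave a signal of 32.3 (Runx2 siRNA) and 38.3 (control) on the replicate1 arrays and 528 and 1729.6 on the replicate2 arrays. Both replicate2 arrays thus lay above both replicate1 arrays, by 4.25 ± 0.31 (SE), 5.01 in the control pair alone, adjusted p = 0.000361 in the limma fit. The replicate1 signals of Lcn2 were below the filter, so it passed only through the replicate2 arrays and had to differ. It was 1 of 54 such probe sets among the 572 called higher and 1 of 2 such genes among the 19 of this list.

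Nfkbiz, which encodes the nuclear co-regulator IkB-zeta, had signals of 123 (Runx2 siRNA) and 123 (control) on the replicate1 arrays and 881 and 1086 on the replicate2 arrays. The replicate1 arrays were close to each other and the gap to the replicate2 arrays was 2.84 ± 0.14 (SE), 2.99 in the control pair alone, adjusted p = 0.000114 by limma. The inhibitors that NF-kB induces moved the same way. Nfkbia, encoding the inhibitor IkB-alpha, read 1100.1 (Runx2 siRNA) and 1029 (control) on the replicate1 arrays and 3279 and 2752 on the replicate2 arrays, a difference of 1.48 ± 0.09 (SE), 1.41 in the control pair alone, adjusted p = 0.000203 by limma. Tnfaip3, encoding the ubiquitin-editing enzyme A20 that ends NF-kB signalling, read 622 and 509 against 1336 and 1099 in the same order, and its pairs differed by 1.08 and 1.09. Of the NF-kB subunits, Relb (1.21) and Nfkb2 (1.12) were called higher, while Nfkb1, at 1227 and 1266 against 1747 and 1490.0, gave 0.37 with an adjusted p of 0.0673 by limma and was not called.

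Receptors and effectors of inflammation made up much of the rest of the list. Vcam1, an adhesion molecule for leukocytes, had signals of 258 (Runx2 siRNA) and 335 (control) on the replicate1 arrays and 1127 and 2708 on the replicate2 arrays, with a difference of 2.51 ± 0.18 (SE), 2.96 in the control pair alone, adjusted p = 0.000361 by limma. Birc3, an apoptosis inhibitor that NF-kB induces, differed by 1.35, the copper-carrying ferroxidase gene Cp by 1.37, the metalloreductase gene Steap4 by 1.29 and the interleukin 1 receptor gene Il1r1 by 0.93, and all of these were called higher. The receptors for bacterial products Tlr2 (1.16) and Cd14 (0.65) were called higher as well. Il6, a cytokine that drives the acute phase, read 31.2 and 34.5 against 164 and 125 and was called at 1.70, with both replicate1 signals below the filter. Nos2, which makes nitric oxide, was not called: it read 17.4 (Runx2 siRNA) and 110.4 (control) on the replicate1 arrays and 389 and 132 on the replicate2 arrays, so that its pairs gave 3.60 and 0.23. Tnf and Il1b, genes of the cytokines that start NF-kB signalling in many cells, were below the filter, with Tnf at 6.45 and 6.90 on the replicate1 arrays and 34.6 and 34.3 on the replicate2 arrays, and were not tested. Of the 22 dim members, 13 were higher in both pairs and 2 lower in both, at signals where a single array carries little precision. The same shares over all dim probe sets were not counted. Without the filter the median over all probe sets was 0.05, against 0.01 with it, so these 2 counts are not read as a result about the list.

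Chemokines, the secreted proteins that draw leukocytes, were mostly higher too. The list, which also holds the receptor gene Cxcr4, had 26 genes on the array, of which 11 were dim. Of the 15 tested 9 were called higher and 0 lower (60% and 0%, against 3.07% and 2.64% of all probe sets). The median difference was 1.18 (0.82 in the Runx2 siRNA pair and 1.21 in the control pair). In 4 of the 9 both replicate1 signals were below the filter. Cxcl1, which attracts neutrophils, had signals of 389 (Runx2 siRNA) and 887 (control) on the replicate1 arrays and 3847 and 6219 on the replicate2 arrays. The lowest adjusted p of the whole comparison was that of Cxcl1, with a difference of 3.02 ± 0.12 (SE), 2.79 in the control pair alone, adjusted p = 2.60e-05 by limma. Ccl20, which attracts cells bearing Ccr6, read 54.2 and 50.7 against 307 and 1089 in the same order, a difference of 3.13. Ccl2, which attracts monocytes, read 6.28 and 23.5 against 99.9 and 213 and differed by 2.46. Cxcl12, the ligand of Cxcr4, rose from higher levels, 1032 and 1175 against 2144 and 3959, by 1.39 ± 0.15 (SE), 1.74 in the control pair alone, adjusted p = 0.0015 in the limma fit. The interferon-induced chemokines Cxcl10 (1.33) and Cxcl11 (1.46) and the attractants Cxcl2 (1.30), Ccl5 (1.18) and Cx3cl1 (0.88) were called higher. Cxcr4, the receptor of Cxcl12, gave -0.61 and was not called (adjusted p = 0.083 by limma), and Cxcl3 gave -0.86 in one pair and 0.77 in the other on its brightest probe set, while 1 of its other 2 was called higher at 1.31. In both pairs 11 of the 15 were higher and 2 lower, against 35.2% and 32.0% of all probe sets. Cxcl14 was lower in both, at -0.57 in the Runx2 siRNA pair and -0.30 in the control pair, and Cxcl13 gave -0.14 and 0.47. Neither was called.

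The promoters of these genes are shown because the first 2 hold the same NF-kB letters. RefSeq's windows on the GRCr8 build, from 250 bases before to 50 after the gene's start, were searched on both strands for GGGANTTTC, a form of the NF-kB site. Windows were found for 5 of the 6 leading genes (Lcn2, Cxcl1, Nfkbiz, Lhcgr and Scd). The motif was in Cxcl1, starting 84 bases before the gene's start, and in Nfkbiz, starting 13 bases before it, against 1.15% of 33469 windows of 300 bases. The Cxcl1 window is chr14:17479272-17479571, minus strand, and that of Nfkbiz is chr11:58251471-58251770, plus strand. Both are printed 5′ to 3′ along the gene with the matching letters in capitals.
Cxcl1: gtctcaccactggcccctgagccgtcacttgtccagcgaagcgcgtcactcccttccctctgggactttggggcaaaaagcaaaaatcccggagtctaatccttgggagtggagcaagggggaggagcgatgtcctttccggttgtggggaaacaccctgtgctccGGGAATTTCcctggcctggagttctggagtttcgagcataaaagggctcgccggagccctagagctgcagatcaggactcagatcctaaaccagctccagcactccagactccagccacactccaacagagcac
Nfkbiz: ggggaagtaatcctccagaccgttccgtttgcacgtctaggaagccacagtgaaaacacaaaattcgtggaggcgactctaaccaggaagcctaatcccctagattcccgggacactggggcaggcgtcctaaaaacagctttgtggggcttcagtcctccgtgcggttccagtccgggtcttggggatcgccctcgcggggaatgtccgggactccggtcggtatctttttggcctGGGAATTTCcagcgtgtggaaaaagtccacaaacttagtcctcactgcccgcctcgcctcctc

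The matching letters are the same in both genes, and a match describes these letters only and is not a binding site. Over the inflammatory lists the motif was in 7 of 22 windows found for genes called higher (31.8%) and in 1 of 13 found for tested genes that were not (7.69%). Cxcl1 and Nfkbiz are among the 7. These lists include complement and coagulation, where 1 of 9 tested genes was called, so the 2 shares also differ in the make-up of the lists. The gap between the shares was not tested. The window of Lcn2 did not hold it, which says only that these letters are not in those bases of its window. The windows of Lhcgr and Scd held neither the NF-kB letters nor those used for the luteal and lipid genes below, and that of Scd held the interferon response letters searched below, starting at base 20 of the transcript.

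**Figure D2:**
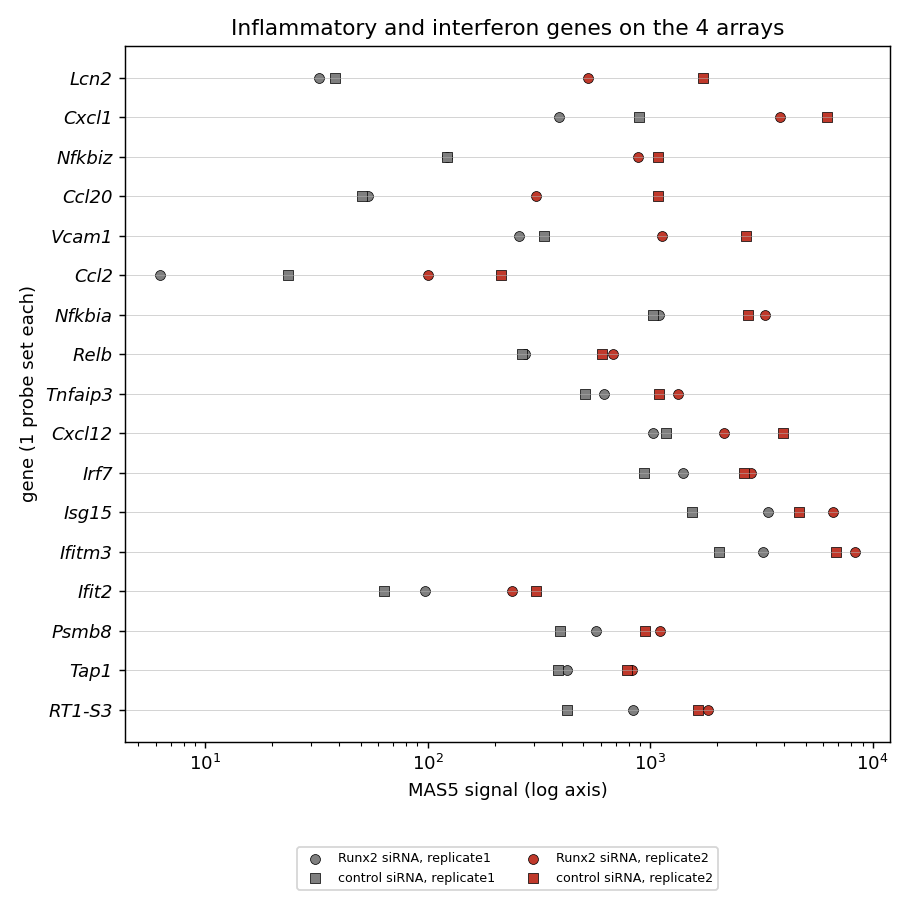
MAS5 signal, on a log axis, of 17 genes of the inflammatory and interferon lists on each of the 4 arrays, circles for Runx2 siRNA and squares for control siRNA, grey for replicate1 and red for replicate2. For Cxcl1 the replicate1 signals are 389 and 887 and the replicate2 signals 3847 and 6219, and in each gene drawn both red points lie to the right of both grey points.

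Interferon-induced genes were higher on the replicate2 arrays in both siRNA groups. Of 51 on the array 46 were tested, and 30 of these were called higher (65.2%, against 3.07% of all probe sets) and 0 lower, with a median difference of 0.72, 0.48 in the Runx2 siRNA pair and 0.95 in the control pair. Of the 46, 39 were higher in both pairs and 0 lower in both, against 35.2% and 32.0% of all probe sets, and in 42 the control pair gave the larger value. That difference between the pairs was not tested. None of the interferon genes called had both replicate1 signals under the filter.

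Among the antiviral effectors, Ifitm3, which blocks virus entry at membranes, read 3218 (Runx2 siRNA) and 2032 (control) on the replicate1 arrays and 8314 and 6869 on the replicate2 arrays, and differed by 1.56 ± 0.11 (SE), 1.75 in the control pair alone, adjusted p = 0.000361 in the limma fit. Isg15, a ubiquitin-like protein, read 3376 and 1535 against 6630.3 and 4686 in the same order, a difference of 1.29. Ifit2, which acts on viral RNA translation, read 97.7 and 63.4 against 239 and 308 and differed by 1.60. Rsad2, encoding viperin, differed by 1.29, Mx1 by 1.57 and Ifitm1 by 1.80, and all were called higher. The transcription factors Irf7 (1.24 ± 0.12 (SE), 1.48 in the control pair alone, adjusted p = 0.0011 by limma) and Irf1 (0.84) and the signalling factor Stat2 (0.52) were called, with the other Stat2 probe set at -0.03, whereas Irf9 (0.32, with its other probe set called at 0.56) and Irf3 (0.02), which is not itself interferon-induced, were not. Usp18, which limits interferon receptor signalling, was called at 0.83.

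Mx2, a dynamin-like GTPase that acts against viruses, had 2 probe sets that disagreed in size. The dimmer read 282 (Runx2 siRNA) and 133 (control) on the replicate1 arrays and 1991 and 2472 on the replicate2 arrays, a difference of 3.41 ± 0.24 (SE), 4.06 in the control pair alone, adjusted p = 0.000361 by limma. The brighter read 4451 and 3230.0 against 5612 and 5836 in the same order and differed by 0.59 ± 0.13 (SE), 0.85 in the control pair alone, adjusted p = 0.0306 by limma. Both were higher on the replicate2 arrays, and the counts of the list use the brighter. Ifit3 showed how the pairs could differ: it read 492 (Runx2 siRNA) and 155 (control) on the replicate1 arrays and 570.4 and 554 on the replicate2 arrays, so that only the control siRNA array titled replicate1 was low, and it was not called (adjusted p = 0.091 by limma).

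Genes of antigen presentation were higher as well. Of 23 on the array 7 were dim. Of the 16 tested 10 were called higher and 0 lower (62.5% and 0%, against 3.07% and 2.64% of all probe sets). The median difference was 0.75 (0.79 and 0.72 in the Runx2 siRNA and control pairs). All 3 immunoproteasome subunits were called: Psmb8 read 569 (Runx2 siRNA) and 393 (control) on the replicate1 arrays and 1103 and 949 on the replicate2 arrays, and differed by 1.09 ± 0.11 (SE), 1.24 in the control pair alone, adjusted p = 0.0015 in the limma fit, while Psmb9 differed by 1.23 and Psmb10 by 1.15. Tap1, a peptide transporter, read 422 and 383 against 832 and 787 and was called at 0.98, whereas its partner Tap2, at 199 and 246 against 227 and 234, gave 0.05 and was not. B2m, the light chain of class I molecules, was called at 0.68, and among the class I heavy chains, whose near-identical copies can share probes, RT1-S3 (841 and 424 against 1813 and 1637) and RT1-T24-4 (511 and 575 against 1061 and 1126) were called higher. The class II genes RT1-DMa (-0.21) and RT1-DMb (0.19) were not called. The promoter letters GAAANNGAA, a form of the interferon response element, were in 22 of 31 windows found for genes of the interferon lists called higher (71.0%) and in 12 of 18 for those not called (66.7%), against 9.71% of all windows.

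Genes of the luteal cell were divided. Of 29 tested, 9 were called lower on the replicate2 arrays and 3 higher (31% and 10.3%, against 2.64% and 3.07% of all probe sets). The median difference was -0.30 (-0.29 in the Runx2 siRNA pair and -0.22 in the control pair). Lhcgr, the receptor for LH, led them. Its brighter probe set read 4475 (Runx2 siRNA) and 5593 (control) on the replicate1 arrays and 640.2 and 1484 on the replicate2 arrays, a difference of -2.34 ± 0.17 (SE), -1.90 in the control pair alone, adjusted p = 0.000361 in the limma fit. Its other probe set read 1639.6 and 2524 against 238 and 547 in the same order and differed by -2.44 ± 0.13 (SE), -2.17 in the control pair alone, adjusted p = 0.000114, again by limma. On both probe sets each replicate2 signal was below each replicate1 signal. Prlr, the prolactin receptor that maintains the rodent corpus luteum, read 5769 and 6828 against 2626 and 4231 and was called at -0.91. Of the other 14 hormone receptors tested, Ptger3, a receptor for prostaglandin E2, was called higher (57.8 and 67.8 against 182 and 337, a difference of 1.75, with both replicate1 signals under the filter and its other probe set not called at 0.78). The remaining 13, among them Egfr (-0.41), Igf1r (-0.11) and Nr3c1 (0.03), were not called on the probe set read. The other probe set of Egfr was called lower at -0.52. The receptor gene Gnrhr gave -0.22 on its brighter probe set, not called, and was called lower at -0.51 on its other.

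The other luteal genes called lower included cholesterol carriers and regulators of steroidogenesis. Mrap, an accessory protein of the melanocortin 2 receptor, read 932 (Runx2 siRNA) and 1059.7 (control) on the replicate1 arrays and 364 and 696 on the replicate2 arrays, a difference of -0.96. Scarb1, the receptor for high density lipoprotein, read 6734 and 10287 against 4345 and 8153, and was called at -0.48 ± 0.11 (SE), -0.33 in the control pair alone, adjusted p = 0.0408 by limma, with overlapping groups, since the control replicate2 array lay above the Runx2 siRNA replicate1 array. Its other probe set, nearly as bright, gave -0.31 and was not called. Nr5a1, encoding steroidogenic factor 1, differed by -0.53 (its other probe set, at -0.31, was not called), the sterol carrier gene Stard4 by -0.79 (2 of 3 probe sets called), the Wnt antagonist gene Sfrp4 by -1.12, and Parm1 and Cited4 by -0.75 and -0.73. The genes of the steps from cholesterol to progesterone were not among them. Star, which carries cholesterol into mitochondria, read 12682 (Runx2 siRNA) and 14279 (control) on the replicate1 arrays and 13376 and 15538 on the replicate2 arrays, a difference of 0.10 ± 0.12 (SE), 0.12 in the control pair alone. Cyp11a1, the side chain cleavage enzyme, read 9641 and 12150.2 against 7701 and 10223 (-0.29 ± 0.11, -0.25 in the control pair alone). Hsd3b1, which makes progesterone from pregnenolone, read 15292 and 13264 against 26312 and 15353 (0.50 ± 0.16, 0.21 in the control pair alone). None of these was called, with adjusted p of 0.688, 0.173 and 0.113 by limma. Apoe (0.79) and the immediate early genes Junb (0.71) and Nr4a1 (0.61) were called higher. The letters CAAGGTCA, the site of NR5A factors, were in 0 of 5 windows found for luteal genes called lower and 0 of 17 for tested luteal genes that were not, against 1.52% of all windows.

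**Figure D3:**
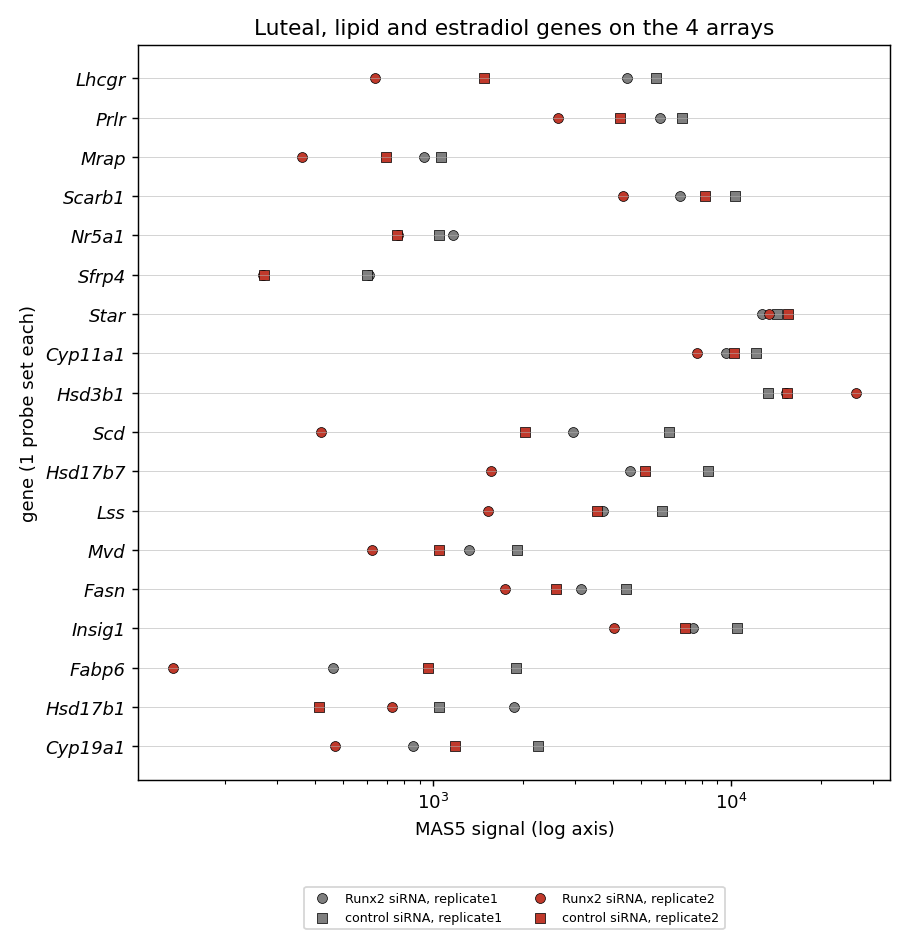
MAS5 signal, on a log axis, of 18 luteal, lipid and estradiol genes on each of the 4 arrays, circles for Runx2 siRNA and squares for control siRNA, grey for replicate1 and red for replicate2. Both Lhcgr signals in red, 640.2 and 1484, lie left of both in grey, 4475 and 5593, while the 4 points of Star overlap.

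The enzymes of cholesterol and fatty acid synthesis were lower on the replicate2 arrays. Of 42 tested, 25 were called lower (59.5%, against 2.64% of all probe sets) and 0 higher. In both pairs 38 were lower and 2 higher, against 32.0% and 35.2% of all, and the median difference was -0.51, with -0.51 in the Runx2 siRNA pair and -0.48 in the control pair. Scd, the stearoyl-CoA desaturase that makes monounsaturated fatty acids, read 2949 (Runx2 siRNA) and 6211 (control) on the replicate1 arrays and 419 and 2039 on the replicate2 arrays, and differed by -2.18 ± 0.22 (SE), -1.60 in the control pair alone, adjusted p = 0.0013 in the limma fit. Both replicate2 signals were below both replicate1 signals. Its relative Scd2 was bright on all arrays, 14554 and 15229 against 10838 and 14360.5 in the same order, and was not called on that probe set (-0.25), while 1 of its other 3 was called lower at -0.92.

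Within the cholesterol pathway the called genes ran from the mevalonate steps to the late sterol steps. Mvk and Mvd, early enzymes that phosphorylate and decarboxylate mevalonate, differed by -0.68 and -0.96, Sqle, the squalene epoxidase, by -0.57, and all were called lower. Lss, the lanosterol synthase, read 3724 (Runx2 siRNA) and 5878 (control) on the replicate1 arrays and 1533 and 3560.3 on the replicate2 arrays, a difference of -0.996, and was called lower. The late enzymes Hsd17b7 (-1.12), Ebp (-0.75), Tm7sf2 (-0.68) and Nsdhl (-0.52) were called lower as well. Hsd17b7 read 4565 and 8333 against 1563 and 5146, with overlapping groups. Other enzymes of the pathway were bright and not called, among them Idi1 (0.20), Fdps (-0.21), Cyp51 (-0.26, with its other probe set called lower at -1.01) and Msmo1 (-0.05).

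Of the fatty acid enzymes, Fasn, the fatty acid synthase, read 3132 (Runx2 siRNA) and 4433 (control) on the replicate1 arrays and 1743 and 2575 on the replicate2 arrays, a difference of -0.81 ± 0.09 (SE), -0.78 in the control pair alone, adjusted p = 0.0015 by limma. Acaca, which makes malonyl-CoA, differed by -0.73, the elongase gene Elovl6 by -0.70, the desaturase genes Fads2 and Fads1 by -0.71 and -0.45, and Acss2, which makes acetyl-CoA from acetate, by -0.57. All were called lower, though the other probe set of Acaca, at -0.51, was not. The regulators were lower too: Insig1, which holds SREBP in the endoplasmic reticulum, read 7449 and 10475 against 4055 and 7013 and was called at -0.73, Srebf1 at -0.55, Scap at -0.43 (its other probe set at 0.23) and Srebf2 at -0.38. Aacs, which feeds acetoacetate into lipid synthesis and stood outside the lists, read 1144 and 1754 against 352 and 959 and was called at -1.26. The sterol response letters TCACNCCAC were in 1 of 22 windows found for lipid genes called lower (4.55%) and in 0 of 37 for tested lipid genes that were not, against 1.12% of all windows.

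Genes of lipid uptake, storage and export showed no common direction. Of 33 tested, 6 were called lower and 3 higher (18.2% and 9.09%, against 2.64% and 3.07% of all probe sets). The median difference was -0.04. Cd36, a scavenger receptor that takes up fatty acids and oxidised lipoprotein, read 189 (Runx2 siRNA) and 154 (control) on the replicate1 arrays and 992 and 740.5 on the replicate2 arrays, and was higher by 2.23 ± 0.13 (SE), 2.15 in the control pair alone, adjusted p = 0.000203 in the limma fit. Angptl4, an inhibitor of lipoprotein lipase, read 6000.1 and 3999.7 against 15540.5 and 8394 and was called higher at 1.22. Fabp6, a bile acid binding protein, read 462 and 1898 against 133 and 960.4 and was called lower at -1.32, with the Runx2 siRNA arrays below the control arrays at each number. The acyl-CoA synthetase gene Acsl3 was called lower at -0.99, and the lipoprotein receptor genes Vldlr and Lrp8 at -0.45 and -0.42, Vldlr on 1 of 4 probe sets, with the others between -0.32 and 0.03.

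**Figure D4:**
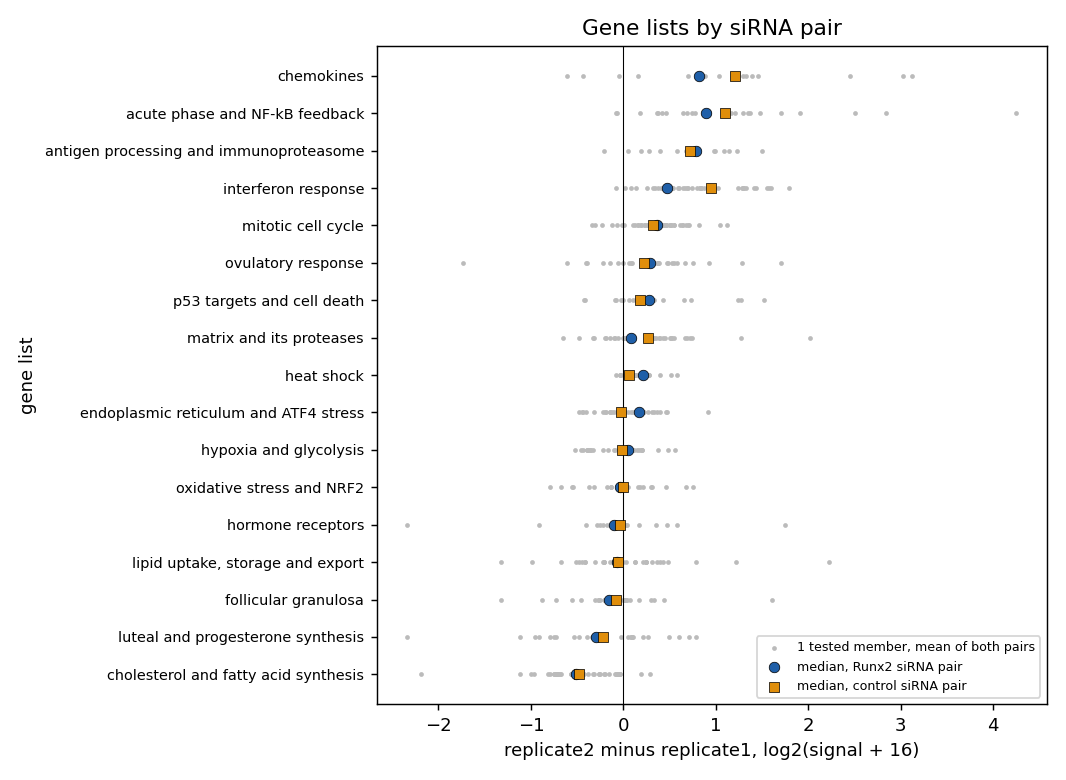
Log2 difference, replicate2 minus replicate1, for 17 gene lists, with each tested member as a grey point, the median of the Runx2 siRNA pair as a blue circle and that of the control pair as an orange square. Acute phase genes lie furthest right in the Runx2 siRNA pair (0.90) and chemokines in the control pair (1.21), and cholesterol and fatty acid synthesis lies furthest left in both (-0.51 and -0.48).

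Genes of the follicular granulosa cell included those of estradiol synthesis. Of 25 tested, 4 were called lower and 1 higher (16% and 4%, against 2.64% and 3.07% of all probe sets). The median difference was -0.09. Hsd17b1, which reduces estrone to estradiol, read 1867 (Runx2 siRNA) and 1043 (control) on the replicate1 arrays and 729 and 415 on the replicate2 arrays, a difference of -1.32 ± 0.10 (SE), -1.30 in the control pair alone, adjusted p = 0.000361 by limma. Cyp19a1, the aromatase, read 856 and 2249 against 470.0 and 1185 and was called at -0.88. Inhbb, a subunit of activin and inhibin, was called lower at -0.73 and Fst, the activin antagonist follistatin, at -0.55. Inhba was not called on its brighter probe set (-0.005) and was called lower on its other (-0.90). The transcription factor Wt1, found in granulosa cells of small follicles, was called higher (116 and 92.5 against 373 and 327, a difference of 1.61). In Hsd17b1 and Cyp19a1 the siRNA groups lay apart at both numbers, in opposite orders, and the difference by number was of like size in each pair, -1.34 and -1.30 for Hsd17b1 and -0.84 and -0.92 for Cyp19a1.

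Genes that the ovulatory signal induces were mixed. Of 28 tested, 5 were called higher and 1 lower (17.9% and 3.57%, against 3.07% and 2.64% of all probe sets). The median difference was 0.35. The EGF-like ligands Ereg (355 and 189.9 against 825 and 519, a difference of 1.28) and Areg (1061 and 697 against 2534 and 1065, 0.92) and the hyaluronan-binding protein gene Tnfaip6 (0.55) were called higher. Snap25, a membrane fusion protein, read 572 (Runx2 siRNA) and 709 (control) on the replicate1 arrays and 133 and 241 on the replicate2 arrays, and differed by -1.74 ± 0.16 (SE), -1.50 in the control pair alone, adjusted p = 0.000962 in the limma fit, with both replicate2 signals below both replicate1 signals. Mitotic genes gave a median of 0.39 (0.36 and 0.32 by pair), with 39 of 47 tested higher in both pairs and 3 lower in both, against 35.2% and 32.0% of all probe sets. Only 4 of the 47 were called, all higher: the proliferation marker Mki67 (78.0 and 41.5 against 186 and 110.2, 1.12), the DNA primase gene Prim1 (0.65), Mcm2 (0.52) and Cdk1 (0.52), against 3.07% of all probe sets. Both replicate1 signals of Mki67 were under the filter. Cdc20, another mitotic gene, was called higher at 0.94 on its dimmer probe set, which the counts do not use. Its brighter probe set gave 0.40 and was not called.

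Matrix and stress genes were described from the same fit. Fn1, encoding fibronectin, read 433 (Runx2 siRNA) and 402 (control) on the replicate1 arrays and 1653 and 1847 on the replicate2 arrays, a difference of 2.03 ± 0.11 (SE), 2.15 in the control pair alone, adjusted p = 0.000114 by limma, and Ccn1, a matrix-bound signal protein, was called higher at 1.27. Of 36 matrix genes tested 6 were called higher and 1, Timp3 (-0.48, on 1 of 4 probe sets), lower. Among p53 and cell death genes, 3 of 22 were called higher, namely the death receptor gene Fas (181 and 149.9 against 490.0 and 362, 1.27) and the caspase genes Casp12 (1.52) and Casp4 (1.24), and Gadd45a (-0.43) was called lower. The endoplasmic reticulum list had 2 of 33 called higher and 1 lower, the heat shock list 1 of 16 higher, the hypoxia list 1 of 31 higher and 4 lower, and the NRF2 list 1 of 26 higher and 3 lower. Over all probe sets 3.07% were called higher and 2.64% lower, so the hypoxia list's 3.23% higher and the endoplasmic reticulum list's 3.03% lower lie near the background, while the hypoxia list had 12.9% lower, the NRF2 list 11.5% lower, the endoplasmic reticulum list 6.06% higher and the heat shock list 6.25% higher, each on a few genes. Of 9 complement and coagulation genes tested, C1s (0.53) was called higher.

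Further genes among the 15 largest differences in each direction lay outside the lists, apart from Bcl3 of the acute phase list. Reg3g, an antibacterial lectin, read 42.0 (Runx2 siRNA) and 64.3 (control) on the replicate1 arrays and 366 and 1974 on the replicate2 arrays, a difference of 3.67, and Slpi, a protease inhibitor of mucosal surfaces, read 63.4 and 15.7 against 211 and 318 and was called at 2.46. Hpx, the heme carrier hemopexin, was called at 1.99 and Rnase1l2 at 2.10. Bcl3, an IkB family member, was called at 3.04 on its dimmer probe set, while the brighter, at 88.2 and 107 against 179.6 and 154, gave 0.69 and was not called. Reg3g, Slpi, Hpx, Rnase1l2 and the called probe set of Bcl3 had both replicate1 signals under the filter, so they passed only through the replicate2 arrays and had to differ. On the lower side, Zfp385b read 405 and 248 against 43.0 and 65.2 and was called at -2.27, Eml1 at -1.35, Dync1i1 at -1.28, Chst1 at -1.28 and Lsamp at -1.22. Both replicate2 signals of Zfp385b, and of the called probe set of Camk2g, were under the filter, as in 6 of the 492 lower calls, so these passed only through the replicate1 arrays. Nr0b2, a nuclear receptor that represses other receptors, read 423 and 515 against 161 and 218 and was called at -1.25, and Hpgd, which breaks down prostaglandins, at -1.24, with its other probe set not called at -0.85. Camk2g and Slc16a13 were called lower on one probe set each (-1.49 and -1.27) and not on the other (-0.24 and -0.26). Of 267 genes with at least 1 call and several tested probe sets, 224 had all in 1 direction and 0 had calls in both. Of 494 genes of all lists, 19 were called on the brightest probe set with another not called, and 12 the other way round.

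Markers of granulosa cells and of other cells of the ovary were read beside these results. The granulosa factor genes Foxl2 (6255 and 5311 against 6569 and 5103) and Inha (15984 and 13413 against 17693 and 12499.9) were bright on all 4 arrays and differed by 0.01 and 0.02. Of the 10 granulosa markers tested, however, 3 were called lower (Hsd17b1, Cyp19a1 and Inhbb) and 1 higher (Wt1), 6 were lower in both pairs and 1 higher in both, and the median difference was -0.14. Over all probe sets 2.64% were called lower and 3.07% higher, and 32.0% were lower and 35.2% higher in both pairs. The summed signal of the 11 granulosa markers was 36372 and 30169 on the replicate1 arrays and 34422 and 26204 on the replicate2 arrays. Of 22 macrophage and leukocyte markers 15 were dim, and the summed signal was 1455 and 1429 on the replicate1 arrays and 2020.3 and 1871 on the replicate2 arrays, a ratio of replicate2 to replicate1 of 1.39 in the Runx2 siRNA pair and 1.31 in the control pair. Lyz2, encoding lysozyme, was the only one of the 7 tested that was called (145 and 134 against 312 and 307, 1.07), and Csf1r (0.19), Cd68 (0.19) and Cybb (-0.01) were not. All 7 neutrophil markers and 13 of 14 lymphocyte markers were dim, with sums of 135 and 68.5 against 88.5 and 95.9 for the former and 681 and 515 against 830.2 and 535 for the latter. The summed stromal and smooth muscle markers were 2435 and 2035 on the replicate1 arrays and 3536 and 3518 on the replicate2 arrays, ratios of 1.45 and 1.73, and 3 of 11 tested were called higher: the smooth muscle gene Tagln (84.3 and 47.9 against 401 and 399.7, 2.38) and the proteoglycan genes Dcn (1.02) and Lum (0.87). Both erythroid markers tested, Hbb (-1.09) and Alas2 (-1.22), were called lower, and the erythroid sum was 3552 and 3166 against 2038 and 1195. The part of these cells in the inflammatory, interferon, luteal and lipid differences was not tested.

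The markers of the other types were mostly dim. The theca sum below came mostly from the 2 theca markers above the filter. Endothelial markers summed to 969 and 646 against 712 and 796, theca markers to 16229 and 15643 against 13444 and 16624, surface epithelium markers to 1186 and 1299 against 1131 and 1361, and oocyte markers to 660.2 and 469 against 967 and 691, with 10 of 13, 5 of 7, 6 of 9 and 6 of 7 of them dim.

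**Figure D5:**
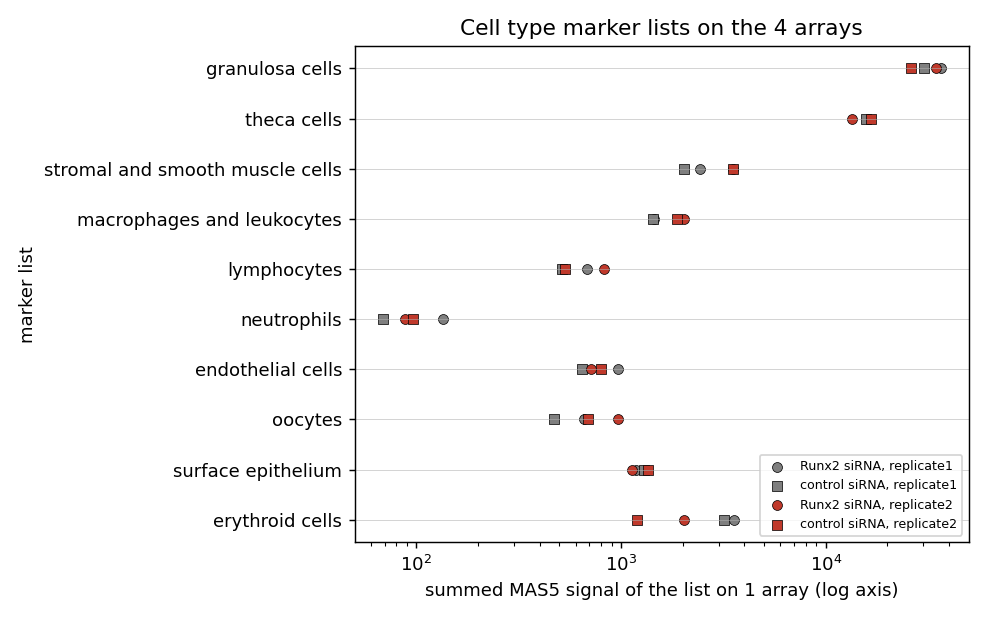
Summed MAS5 signal of each cell type's marker list on each of the 4 arrays, on a log axis, circles for Runx2 siRNA and squares for control siRNA, grey for replicate1 and red for replicate2. Granulosa markers sum to between 26204 and 36372 on every array, stromal and macrophage markers are higher on both red points, and erythroid markers lower.

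The number also bears on the siRNA comparison of the same 4 arrays. With the number as a replicate block, the limma fit called 1512 of 18625 probe sets between the Runx2 siRNA and control groups (8.12%), and without it 0 (0%), with 2225 at an unadjusted p under 0.05, so the pairing of arrays by number decides that count. The labels do not say what the shared number stands for, and no interaction of siRNA and number could be tested with 1 array in each of the 4 cells of the design.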

How the data were processed

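The series holds 4 one-colour Affymetrix rat arrays, and the values used are the deposited MAS5 signal intensities, made by the authors with MAS5, per the submitters' processing notes. They are linear, and their trimmed mean was 500.1 on each array. No detection calls were used, and the number of arrays limits the precision. Probe sets were named through the platform's gene table. Outside the controls, 20826 had 1 symbol, 436 several and 9780 none, and 20758 of the 20826 matched RefSeq genes (assembly GRCr8). Nothing in the deposited table gives a scan date or batch.

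From the intensities, a model of log2(signal + 16) on the title number and the siRNA was fitted (limma 3.58.1, R 4.3.3, with eBayes and a trend of the variance on intensity) for probe sets above the 40th percentile of mean signal. The Benjamini-Hochberg adjustment covered all 18625, and called means an adjusted p under 0.05. The limma fit has 1 residual degree of freedom and 7.75 from the prior. Each gene of a list was read from its brightest probe set. Genes named in the text are the 6 leading genes, the 15 largest called differences in each direction with the same sign in both pairs, up to 10 called members of each list with up to 4 others, and cell markers. Further list members, called or not, and Tnf and Il1b were chosen after their values were seen. The members, lists, motifs and tests were chosen with earlier results of these data known, so the lists are descriptions. The step was tested on simulated tables with independent noise and no siRNA difference, a simpler setting than the arrays. Sizes and signs were recovered there, but false calls exceeded the nominal rate. The adjusted p and the counts of calls may therefore be too favourable. Alternatives were other constants, quantile and cyclic loess normalization, other filters, no siRNA term, no intensity trend, each array left out, the mean over a gene's probe sets, and a replicate block for the siRNA comparison.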

Additional observations from a re-analysis of the deposited data

Results flagged for a closer look

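Of the 18625 tested probe sets, 6120 (32.9%) had opposite signs in the siRNA pairs. Given here are list members that differed by at least 1.5-fold in each direction and lists of at least 3 tested members whose medians were opposite. None of these differences was tested, since each pair holds 1 array per number. Cxcl3, a neutrophil chemokine, gave -0.86 in the Runx2 siRNA pair and 0.77 in the control pair, a gap of -1.64 on the log2 scale, on its brightest probe set, while another gave 1.38 and 1.24. The median of the endothelial markers, 3 of them tested, was -0.63 and 0.18, a gap of -0.81. The median of the endoplasmic reticulum stress list was 0.17 and -0.02, a gap of 0.19, and that of the hypoxia list 0.05 and -0.01, a gap of 0.067. The theca list, with 2 tested, was at -0.19 and 0.15. Outside the lists, Unc45b had a larger gap, at 1.99 and -0.63, and was chosen after its values were seen. Outside the genes, the geometric mean of 18 spike-in probe sets on the second Runx2 siRNA array was 1.72 times the mean of the control siRNA arrays.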

How the results depend on the processing

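With constants of 1 and 64, quantile or cyclic loess normalization, each of the 32 probe sets of the 6 leading genes and the 15 largest differences in each direction kept its direction and its call, and at the 60th percentile filter all 21 still measured did. Most of the 32 were picked for large called differences on these arrays, so this says little about the other calls. Without a filter on dim probe sets 358 probe sets were called higher and 262 lower, and 2 of the 32, the brighter of Mx2 and the called one of Slc16a13, were no longer called, while the direction held. Without the siRNA term 2 were called higher and 0 lower (limma, 1354 at an unadjusted p under 0.05, lowest adjusted p 0.0430), and without the intensity trend 5 and 0 (3475 at an unadjusted p under 0.05). That left 2 and 5 of the 32 called and none reversed. The numbers of probe sets at least 2-fold higher and lower in both pairs were 63 and 16 with the constant 64, 266 and 51 without a filter, and 57 and 19 at the 60th percentile.

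With 1 array left out, limma was run on 3 arrays without the siRNA term, which assumes that the lone array varies like the other number. It called 2 higher and 0 lower without the first Runx2 siRNA array, 22 and 5 without the second, and, among the control arrays, 3 and 0 without the first and 32 and 27 without the second. The pair that remained had 279 to 305 probe sets at least 2-fold higher and 65 to 188 lower.

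The inflammatory median, over the acute phase, chemokine and complement lists, was 0.83, and 0.88 and 0.63 with constants of 1 and 64, 0.74 with quantile and 0.74 with cyclic loess normalization, 0.70 without a filter, 0.76 at the 60th percentile, 0.92 over all probe sets of a gene, and 0.72 to 0.73 with 1 array left out. The luteal median of -0.30 was -0.29 to -0.22 with 1 array left out. The lipid median over both lipid lists, -0.26, was -0.32 with quantile and -0.31 with cyclic loess normalization and -0.34 to -0.27 with 1 array left out. The interferon median of 0.72 was 0.65 without a filter, 0.77 at the 60th percentile, and 0.54 to 0.91 with 1 array left out, the widest of these ranges. The cause of the shifts was not tested.

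For the siRNA comparison, the replicate block raised the count of calls from 0 (2225 at an unadjusted p under 0.05 by limma) to 1512. The labels do not say whether the numbers pair the arrays. Over the tested probe sets the deviations of same-numbered arrays from their siRNA group means correlated at 0.548, and exchanging the numbers in 1 group would turn that sign. With 2 pairs this is a hint from the data, not the design. Low signals limit the dim members, 54 of the 572 higher calls having both replicate1 signals under the filter.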
